A study of Mus musculus with 12 samples.

Results

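The proteasome is the main protease of the cytosol and nucleus and degrades proteins tagged with ubiquitin. Its RNA was followed here in intestinal stem cells of mice with no, 1 or 2 floxed copies of Apc, the scaffold that restrains Wnt signalling. The genes were taken by name. All symbols starting with Psma, Psmb, Psmc, Psmd, Psme, Psmf or Psmg and a number were used, except the 5 genes of the interferon-inducible immunoproteasome (Psmb8, Psmb9, Psmb10, Psme1 and Psme2), and a symbol had to reach 1 FPKM (mapped fragments scaled by transcript length and library size) in 4 libraries. The rule matched 39 of 14499 gene symbols, and all 39 passed the expression limit. They cover the 7 alpha and 7 beta genes of the core particle, 15 genes of the regulatory particle, 1 activator (Psme4), 1 inhibitor (Psmf1), assembly chaperones of both particles, and Psmc3ip, a meiotic recombination cofactor that matches by name but is not a proteasome subunit. For 1 of the 39, Psmg3, the tables give different loci in different genotypes, with 0% of the gene inside the locus used for Apc_WT and Apc_HET. It was left out of the comparisons, which therefore hold 38 genes. Psmc5, Psma8 and Psmb11 were not analysed here. Psmd1 and Psme3 appear only in rows joined with other genes, which the rule does not match.

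Lgr5+-GFP+ cells were sorted from the intestinal epithelium of C57BL/6 mice, 4 per genotype. Apc_WT mice were Apc+/+, Apc_HET mice ApcFlox/+ and Apc_KO mice ApcFlox/Flox, and all 12 carried Lgr5-CreERT2-ires-eGFP and received 1 tamoxifen injection and a tamoxifen diet for 5 days, so that the controls share the Cre allele and the drug. Cre is driven by the Lgr5 locus, so recombination is limited to cells that express Lgr5, and the cells were taken on day 15. Age and sex are not given in the sources used here. Each table holds 1 FPKM value per gene, which does not show the loss of the floxed exons. Apc itself stood at 9.97, 6.91, 10.5 and 8.20 FPKM in Apc_WT libraries 1 to 4, 9.81, 10.96, 10.7 and 12.5 in Apc_HET and 17.3, 12.9, 15.3 and 9.94 in Apc_KO. Its RNA over the whole gene was higher in Apc_KO than in Apc_WT (log2 fold change 0.58 ± 0.17 SE, limma adjusted p = 0.0142), so the genotypes rest on the labels.

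In the assembled proteasome, alpha rings form the outer gates of the core particle and beta rings enclose its chamber, where Psmb5, Psmb6 and Psmb7 carry the chymotrypsin-like, caspase-like and trypsin-like active sites. The regulatory particle caps the core: a ring of Psmc ATPases unfolds the substrate, Psmd2 and Psmd4 help dock ubiquitin, and the lid holds Psmd14, the enzyme that cuts ubiquitin off before degradation. In many cells the subunit genes are transcribed together when proteasome activity falls, through Nfe2l1 and antioxidant response elements.

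With both Apc copies lost, some regulatory-particle genes and no core-particle gene were called higher, while the median fold change was similar in both particles. In Apc_KO against Apc_WT, limma on log2(FPKM + 1) called 7 of the 38 genes higher and 0 lower at a Benjamini-Hochberg adjusted p under 0.05 over 12962 genes. Calls were common in all genes: 45.5% were called, 27.9% higher and 17.7% lower (22.3% and 21.7% with median-of-ratios size factors), so the 18.4% of proteasome genes called higher is below the share of all genes. That order turned in 7 of 21 recomputations: the share was 55.3% beside 29.3% without Apc_KO replicate 1, 47.4% beside 31.1% without replicates 1 and 4, and 42.1% beside 27.6% with the transcript length trend removed. The 7 were the ATPases Psmc4 and Psmc6, the ubiquitin receptor Psmd4, the lid genes Psmd8 and Psmd12, the base chaperone Psmd9 and the activator Psme4. On GRCm38 (GENCODE vM21) these protein-coding genes lie at chr7:28041707-28050101 (Psmc4), chr14:45329788-45349705 (Psmc6), chr3:95032694-95042614 (Psmd4), chr7:29174188-29180701 (Psmd8), chr11:107479484-107504362 (Psmd12), chr5:123169413-123250131 (Psmd9) and chr11:30771726-30880361 (Psme4). By structure, 5 of 15 regulatory-particle genes were called (33.3%, beside 27.9% of all genes) and 0 of 14 core genes, with 13 core genes having a positive fold change. The median log2 fold change was 0.29 over the regulatory-particle genes and 0.32 over the core genes. Most of the 38 had a fold change above 0, called or not: 34 fold changes were positive (89.5%, beside 58.5% of all genes), and the median log2 fold change was 0.29 beside 0.12 for all genes. An unadjusted p under 0.05 was found for 13 (34.2%, beside 52% of all genes): the 7 called, 5 more with a rise and Psmc2 with a fall. The median log2 fold change of the 38 moved both ways with single Apc_KO libraries. Without Apc_KO replicate 4 it was 0.14 beside 0.10 for all genes, with 29 values positive and 23 above the median of all genes. Without replicate 1 it was 0.45 beside 0.14. Without replicates 1 and 4 together it was 0.29 beside 0.13, with 33 values positive and 32 above the median of all genes. Size factors moved the all-gene median from 0.12 to 0.01 and that of the 38 genes to 0.17, with 6 called higher and 1 lower. With all 12 libraries 32 of the 38 lay above the median of all genes on either scale.

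**Figure D1:**
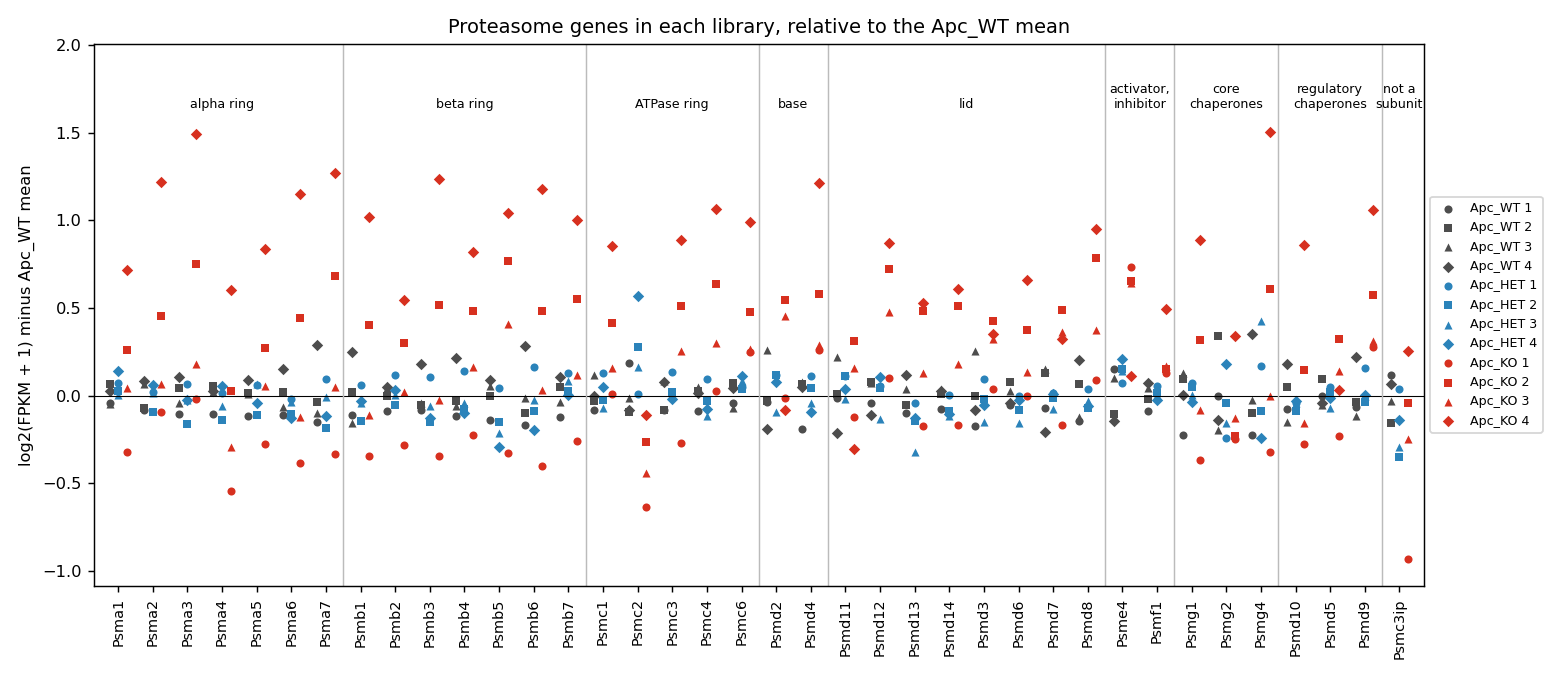
Each point is 1 library's log2(FPKM + 1) of 1 gene minus the mean of the 4 Apc_WT libraries, with the 38 genes on the x axis by structure, genotype by colour and replicate by symbol. Apc_WT and Apc_HET points lie close to 0 for nearly all genes, while Apc_KO replicate 4 is highest and replicate 1 lowest of the Apc_KO libraries for most.

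The 4 Apc_KO libraries were widely spread, those of the other genotypes were not. Summed over the 14 core genes, FPKM were 1309, 1418, 1386 and 1569 in Apc_WT libraries 1 to 4, and 1499.5, 1329, 1391 and 1359 in Apc_HET. In Apc_KO they were 1133, 1953, 1465 and 2814. Replicate 1 therefore lay below every Apc_WT library and replicates 2 and 4 above all of them. Over the 15 regulatory-particle genes the sums were 985, 1026, 1083 and 1007 in Apc_WT, 1068, 1048, 989 and 1079 in Apc_HET, and 967, 1391, 1180.3 and 1562 in Apc_KO. Here replicates 2, 3 and 4 exceeded all 8 other libraries and replicate 1 was the lowest of all 12. In SD, core RNA was 1841 ± 731 FPKM in Apc_KO (n = 4) against 1421 ± 109 in Apc_WT and 1395 ± 74.3 in Apc_HET, and regulatory-particle RNA was 1275 ± 258 against 1025 ± 42.0 and 1046 ± 40.1. All 14 core genes were highest in Apc_KO replicate 4 and lowest in replicate 1 among the Apc_KO libraries.

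**Figure D2:**
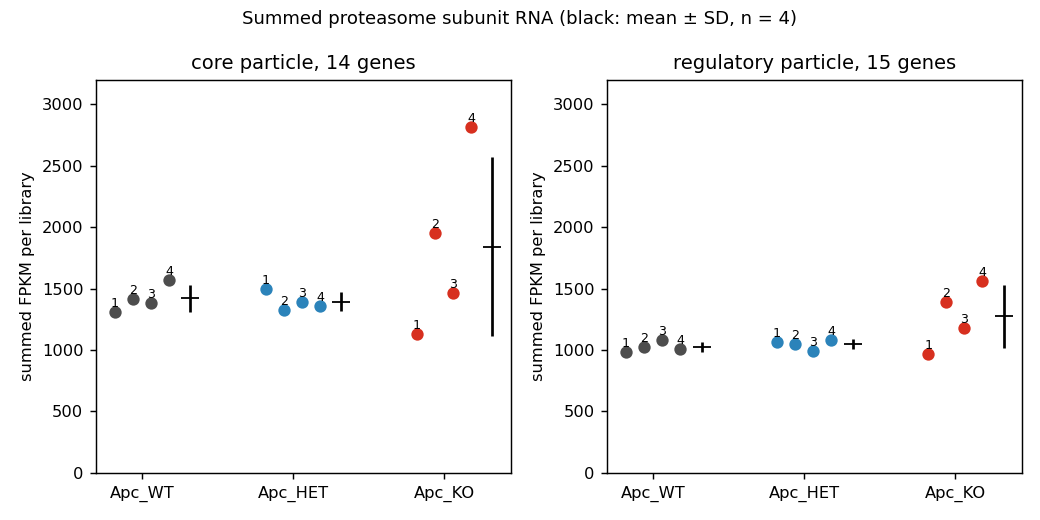
Points are single libraries, labelled by replicate number, and show FPKM summed over the 14 core genes (left) and the 15 regulatory-particle genes (right), with mean ± SD in black. Apc_WT and Apc_HET libraries cluster tightly, and the Apc_KO libraries span 1133 to 2814 FPKM for the core particle.

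Transcript length moved with this spread in all genes, not only in proteasome genes. Among genes over 10 FPKM, the 446 with a longest coding transcript of up to 1000 bases had a median log2 difference from the Apc_WT mean of 0.79 in Apc_KO replicate 4 and -0.40 in replicate 1, and the 1476 genes over 4500 bases had -0.24 and 0.18. Proteasome transcripts are short, with a median of 1561 bases against 2993 for all genes, and core transcripts (median 1162.5) are shorter than those of the regulatory particle (1819). The 72 cytosolic ribosomal protein genes, also short, had median log2 values of 8.07, 8.81, 8.19 and 9.63 in Apc_KO replicates 1 to 4 and between 8.20 and 8.73 in the other 8 libraries. S phase and mitosis genes also set these libraries apart, the median log2 level of 25 of 26 listed genes being 4.45 in replicate 1 and 4.74 in replicate 4, against 5.66 and 5.80 in the other two Apc_KO libraries and 5.03 to 5.71 in Apc_WT. The part of length, RNA quality or cell cycle in the proteasome values was not tested beyond the recomputation that follows.

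**Figure D3:**
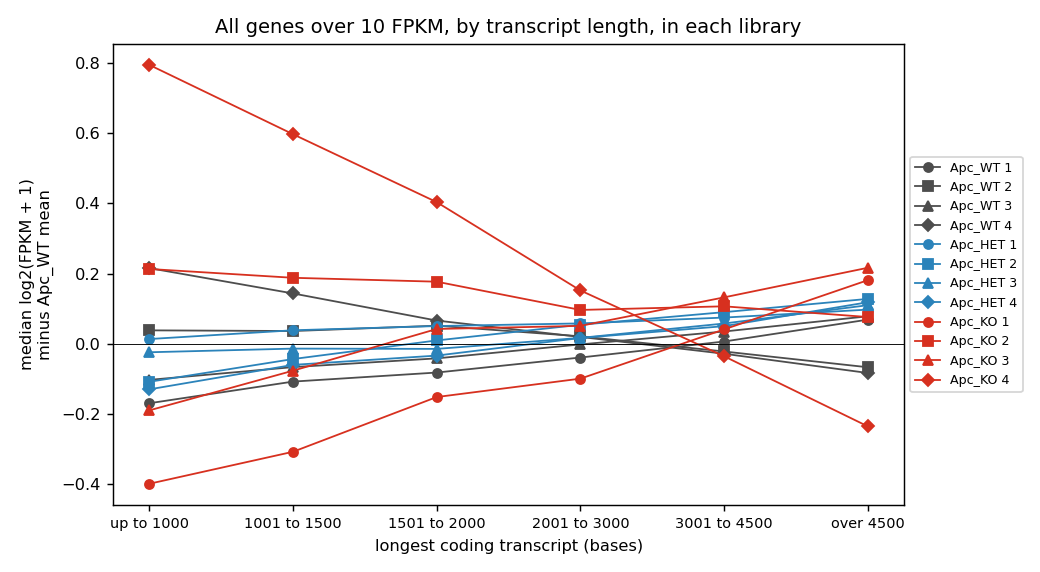
Lines join 1 library's median log2(FPKM + 1) minus the Apc_WT mean over all genes above 10 FPKM in each class of transcript length (x axis, bases). Apc_KO replicate 4 falls from 0.79 in the shortest class to -0.24 in the longest, and replicate 1 runs the other way, from -0.40 to 0.18.

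With each library's trend on transcript length removed, a recomputation chosen after seeing the data, the Apc_KO libraries drew together and more genes passed. The median log2 difference of the core genes from Apc_WT changed from -0.32, 0.47, 0.05 and 1.03 in Apc_KO replicates 1 to 4 to 0.03, 0.31, 0.14 and 0.36. For the regulatory particle it changed from -0.00, 0.49, 0.27 and 0.66 to 0.17, 0.37, 0.25 and 0.25. In this fit 16 genes were called higher and 2 lower, Psmc2 and Psmc3ip, with 27.6% of all 11975 genes with a length called higher and 22.2% lower. The core genes called were 5 of 14, all beta genes (Psmb3, Psmb4, Psmb5, Psmb6 and Psmb7), with log2 fold changes of 0.22 to 0.38. The regulatory-particle genes called higher were 8 of 15: the 5 called before and Psmc1, Psmd6 and Psmd14. No alpha gene was called against Apc_WT in either fit.

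**Figure D4:**
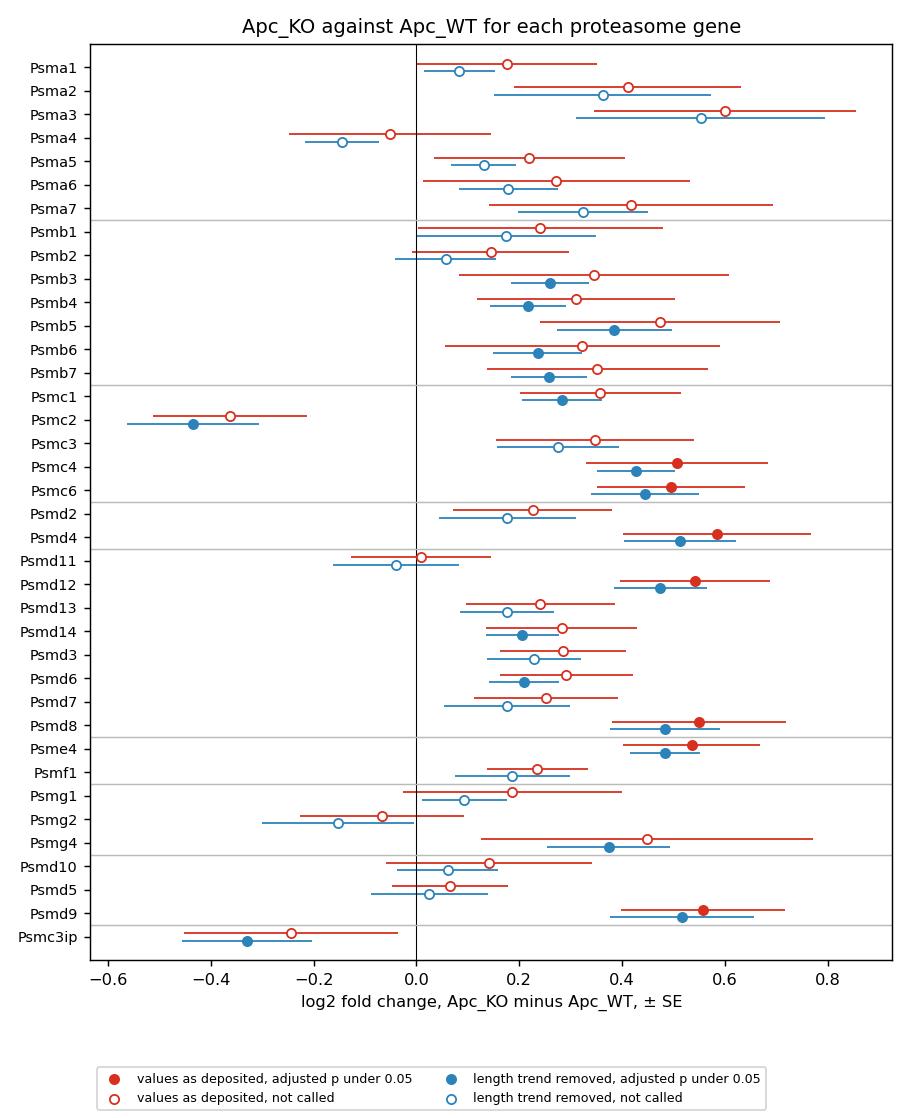
Log2 fold changes of Apc_KO against Apc_WT ± SE for the 38 genes, in the order of the structure, from the deposited values (red) and after removal of each library's length trend (blue); filled symbols have an adjusted p under 0.05. Standard errors shrink without the length trend for most genes, and the beta genes Psmb3 to Psmb7 then pass while their fold changes fall slightly.

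No alpha gene was called in any comparison of the deposited values of all 12 libraries. The ring's most abundant gene was Psma6, at 127, 139.9, 132 and 153 FPKM in Apc_WT replicates 1 to 4, 136, 128, 134 and 126 in Apc_HET and 105, 187, 126 and 308 in Apc_KO. Only Apc_KO replicates 2 and 4 stood above the Apc_WT range, replicates 1 and 3 lay below it, and the log2 fold change was 0.27 ± 0.26 (SE, adjusted p = 0.426 by limma). Without Apc_KO replicate 4 it was -0.02. Psma3 had the largest fold change of the ring, 0.60 ± 0.25, and missed the threshold (adjusted p = 0.0734). It was called in 4 of 21 recomputations against Apc_WT, among them those without Apc_KO replicate 1 (0.81, adjusted p = 0.0150), without replicate 3 (0.74, adjusted p = 0.0398) and without replicates 1 and 4 (0.46, adjusted p = 0.0206), and in 6 of 21 against Apc_HET, including the fit with the length trend removed (0.64, adjusted p = 0.0469). Psma4 was the one core gene with a negative value, -0.05 ± 0.20, which became 0.11 without Apc_KO replicate 1 and 0.028 without replicate 3.

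Of the beta genes, Psmb4, a structural member of the ring, had the most RNA. Its values were 151, 161, 157 and 190.5 FPKM in Apc_WT, 181, 156, 159 and 153 in Apc_HET and 140.4, 229.8, 184 and 290.5 in Apc_KO, with Apc_KO replicates 2 and 4 above all other libraries and the rest overlapping (log2 fold change 0.31 ± 0.19 SE, limma adjusted p = 0.214). Psmb5, the chymotrypsin-like subunit and the target of clinical proteasome inhibitors, stood at 105, 116, 120.1 and 123 FPKM in Apc_WT, 119, 104, 99.8 and 94.2 in Apc_HET and 92.3, 198, 154 and 239 in Apc_KO. Its Apc_KO replicates 2 to 4 exceeded every other library and replicate 1 was the lowest of the 12. Against Apc_WT its log2 fold change was 0.47 ± 0.23 (adjusted p = 0.120), and against Apc_HET it was 0.63 ± 0.23 (adjusted p = 0.0480), the one core call in the deposited values. That call held in 10 of 21 recomputations and was lost on leaving out any single library of the pair of genotypes but Apc_KO replicate 1, with size factors, with the replicate block, with a floor of 5 FPKM and with the 2 genotypes alone. The other 2 catalytic genes had log2 fold changes against Apc_WT of 0.32 ± 0.27 for Psmb6 and 0.35 ± 0.21 for Psmb7, neither called.

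In the ATPase ring 2 genes rose while the most abundant one did not follow. Psmc6 stood at 46.6, 50.6, 45.6 and 49.6 FPKM in Apc_WT, 49.8, 49.3, 50.96 and 51.95 in Apc_HET and 57.4, 67.1, 57.95 and 96.4 in Apc_KO. All 4 Apc_KO libraries lay above all 8 others, and the log2 fold change against Apc_WT was 0.49 ± 0.14 (SE, limma adjusted p = 0.0136). Psmc4 was at 37.1, 40.2, 40.8 and 39.9 FPKM in Apc_WT, 42.3, 38.6, 36.3 and 37.3 in Apc_HET and 40.2, 61.98, 48.8 and 83.5 in Apc_KO, higher by 0.51 ± 0.18 (adjusted p = 0.0340), with Apc_KO replicate 1 inside the Apc_WT range. Psmc2 ran against the other ATPases. Its values were 156, 128, 136 and 129 FPKM in Apc_WT, 138, 166, 153 and 203 in Apc_HET and 87.6, 114, 101 and 127 in Apc_KO, so that every Apc_KO library lay below every library of the other genotypes, narrowly so for replicate 4. It fell against Apc_HET by 0.62 on the log2 scale (SE 0.15, adjusted p = 0.00551), but the difference from Apc_WT, -0.36 ± 0.15, missed the threshold (adjusted p = 0.0665). With median-of-ratios size factors it passed there too (-0.48, adjusted p = 0.0167), as it did without Apc_KO replicate 4 (-0.45, adjusted p = 0.0237). Psmc1 and Psmc3 had log2 fold changes of 0.36 ± 0.16 and 0.35 ± 0.19 and were not called.

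The non-ATPase part of the base gave 1 call. Psmd4, a receptor for ubiquitin chains, stood at 61.1, 73.2, 73.8 and 72.4 FPKM in Apc_WT, 75.6, 72.1, 67.96 and 65.6 in Apc_HET and 83.9, 105, 85.5 and 164 in Apc_KO. The Apc_KO libraries did not overlap either other genotype, and the log2 fold change was 0.58 ± 0.18 (SE, limma adjusted p = 0.0201), the largest of the 7 calls. Psmd2, which binds shuttle receptors, was at 76.02, 76.2, 93.7 and 68.4 FPKM in Apc_WT, 84.9, 84.9, 73.1 and 82.3 in Apc_HET and 77.4, 114, 107 and 73.8 in Apc_KO. Here only Apc_KO replicates 2 and 3 were high, and replicates 1 and 4 lay inside the Apc_WT range (0.23 ± 0.15, adjusted p = 0.260). A row that joins Psmd1, the other large base scaffold, with Armc9 and 2810459M11Rik had 54.9 to 68.1 FPKM in Apc_WT and 73.1 to 89.4 in Apc_KO, and its share from Psmd1 cannot be told apart.

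Fold changes of the 8 lid genes ran from 0.01 for Psmd11, whose sign turned in several recomputations, to 0.55 for Psmd8, and 2 were called. Psmd8 stood at 70.1, 81.3, 71.4 and 89.5 FPKM in Apc_WT, 79.6, 73.8, 76.02 and 74.4 in Apc_HET and 82.6, 135, 101 and 151 in Apc_KO. Its Apc_KO replicate 1 overlapped the Apc_WT range and the other three were above it (0.55 ± 0.17 SE, limma adjusted p = 0.0187). Psmd12, a scaffold of the lid, was at 34.8, 38.1, 37.9 and 33.3 FPKM in Apc_WT, 37.3, 37.1, 32.7 and 38.9 in Apc_HET and 38.6, 59.9, 50.4 and 66.6 in Apc_KO. No Apc_KO library reached down to the Apc_WT values, though replicate 1 overlapped Apc_HET (0.54 ± 0.15 against Apc_WT, adjusted p = 0.00921). The most abundant lid gene, Psmd3, was at 80.9, 91.3, 109 and 86.2 FPKM in Apc_WT, 97.7, 89.9, 81.98 and 87.9 in Apc_HET and 93.9, 123, 114 and 117 in Apc_KO and was not called (0.29 ± 0.12, adjusted p = 0.0765), with replicate 1 inside the Apc_WT range. The deubiquitinase Psmd14 had 0.28 ± 0.15 (adjusted p = 0.138).

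Psme4, which caps the core without ATP and is known for the turnover of acetylated histones, departed from the pattern of the subunits. Its FPKM were 22.7, 18.8, 21.8 and 18.2 in Apc_WT, 21.4, 22.7, 22.5 and 23.6 in Apc_HET and 34.4, 32.5, 32.3 and 22.02 in Apc_KO. It was high in Apc_KO replicates 1, 2 and 3 and inside the Apc_WT range in replicate 4, and its longest coding transcript, 6491 bases, is the longest of the 38. The log2 fold change was 0.53 ± 0.13 (SE, limma adjusted p = 0.00589), and 0.68 without replicate 4 (adjusted p = 9.83e-05). Psmf1, an inhibitor of the core in vitro, had 14.0 to 18.4 FPKM in Apc_KO, above the 11.9 to 13.4 of Apc_WT in every library, yet missed the threshold (0.23 ± 0.10, adjusted p = 0.0690). A row that joins Psme3, another activator gene, with Aoc2 had 48.7, 49.4, 57.4 and 41.5 FPKM in Apc_WT. It had 51.3, 54.3, 46.1 and 51.9 in Apc_HET and 34.6, 52.6, 56.8 and 36.7 in Apc_KO. Apc_KO replicates 1 and 4 lay below the Apc_WT range and replicates 2 and 3 inside it. The share of Psme3 in that row cannot be told apart.

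Among chaperones, Psmd9, which helps build the ATPase base, was at 9.30, 9.52, 8.94 and 11.6 FPKM in Apc_WT, 11.04, 9.51, 9.78 and 9.79 in Apc_HET and 12.1, 15.05, 12.4 and 21.5 in Apc_KO. The Apc_KO libraries were all higher than all 8 others (0.56 ± 0.16 SE against Apc_WT, limma adjusted p = 0.0129). Psmd10 (gankyrin), the most abundant base chaperone, was at 15.8, 17.3, 14.9 and 19.1 FPKM in Apc_WT, 16.2, 15.6, 16.2 and 16.3 in Apc_HET and 13.6, 18.5, 14.9 and 31.02 in Apc_KO. It was high in Apc_KO replicate 4 only and was not called (0.14 ± 0.20, adjusted p = 0.597), and its fold change was -0.10 without that replicate. Psmg2, which pairs with Psmg1 to build the alpha ring, was at 37.4, 47.6, 32.4 and 33.9 FPKM in Apc_WT, 31.4, 36.2, 33.4 and 42.4 in Apc_HET and 31.4, 31.7, 34.1 and 47.7 in Apc_KO, with the genotypes overlapping throughout (-0.07 ± 0.16, adjusted p = 0.762; 0.05 without Apc_WT replicate 2). Psmc3ip, the gene that is no subunit, had 12.9, 10.5, 11.6 and 12.4 FPKM in Apc_WT, 12.2, 9.05, 9.44 and 10.7 in Apc_HET and 5.71, 11.4, 9.79 and 14.3 in Apc_KO and was not called (-0.24 ± 0.21, adjusted p = 0.369). It was lowest in Apc_KO replicate 1 and highest in replicate 4.

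Across genes, 5 of 38 had all Apc_KO libraries above all Apc_WT libraries (Psmc6, Psmd4, Psmd9, Psmd12 and Psmf1), beside 24.3% of all genes, and Psmc2 had them all below, beside 16% of all genes. Psme4, Psmc6, Psmd9 and Psmd12 were called in each of 21 recomputations, Psmd4 in 19, Psmd8 in 17 and Psmc4 in 13. Counts moved with the libraries used: without Apc_KO replicate 1, 21 genes were called higher, 6 of them core genes (29.3% of all genes), and without Apc_KO replicate 4 there were 6 higher and 1 lower (29.2% and 19.1%). Without both, 18 were higher (31.1%), and without Apc_WT replicate 1, 4 were higher (24.8%). Deposited loci cover 23.8% of the annotated span of Psma2, 59.3% of Psma6, 45.0% of Psmc3, 27.1% of Psmd9 and 76.1% of Psmd12, so those values describe part of the annotated gene. For Psmd9 the GENCODE span starts far upstream of the RefSeq start used for promoters below. The deposited locus, chr5:123228211-123250104, begins inside that promoter window. Psmb5, Psmb6 and Psmb7 have annotated pseudogenes, and their values are uncertain where fragments could be split between copies. Other annotated coding genes overlap the deposited loci of Psma4 (AY074887), Psma7 (Ss18l1), Psmb7 (Nek6) and Psmc3ip (Mlx). The same holds for Psmd8 (Ggn), Psmd13 (Ric8a and Sirt3) and Psmg2 (Cep76). The part of these neighbours in the values was not tested.

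The 4 genes called in every recomputation also share a letter pattern in their promoters, noticed after the calls were known and not tested. RefSeq promoter windows of 300 bases, from 250 before to 50 after the transcript start (GRCm38.p6), were found for 31 of the 38 genes and searched on both strands for TGACNNNGC, the core of the antioxidant response element, for CCAAT, the NF-Y box, and for CACGTG, the E-box. TGACNNNGC occurred in 6 of 31 (19.4%), against 14.0% of 27025 genes in the table. The 6 were Psmd9, Psme4, Psmd12, Psmc6, Psmb5 and Psmb6, so 4 of the 7 called genes have it. CCAAT was in 12 of 31 (38.7% against 41.1%), among the called genes only in Psmd4, and CACGTG in 2 of 31 (6.45% against 8.09%). No gene had both TGACNNNGC and CCAAT, the motifs did not overlap each other in the windows shown, and a letter match says nothing of binding. The windows of the 4 genes are given because they carry this overlap, each 5′ to 3′ along the gene's strand, with TGACNNNGC in capitals and, in Psmd9, also CACGTG.
Psmd9, chr5:123227940-123228239, plus strand: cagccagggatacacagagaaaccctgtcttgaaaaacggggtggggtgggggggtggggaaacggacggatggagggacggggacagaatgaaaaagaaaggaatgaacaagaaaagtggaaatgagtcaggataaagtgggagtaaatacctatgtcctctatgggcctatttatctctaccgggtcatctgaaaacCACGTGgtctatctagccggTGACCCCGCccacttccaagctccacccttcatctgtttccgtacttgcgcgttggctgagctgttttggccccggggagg
Psme4, chr11:30771525-30771824, plus strand: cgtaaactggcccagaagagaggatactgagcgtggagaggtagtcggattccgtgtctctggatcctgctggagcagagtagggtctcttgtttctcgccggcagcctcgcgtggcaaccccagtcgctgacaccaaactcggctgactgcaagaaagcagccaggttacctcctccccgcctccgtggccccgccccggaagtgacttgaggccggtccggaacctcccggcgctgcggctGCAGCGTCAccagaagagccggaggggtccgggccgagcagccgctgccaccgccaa
Psmd12, chr11:107479278-107479577, plus strand: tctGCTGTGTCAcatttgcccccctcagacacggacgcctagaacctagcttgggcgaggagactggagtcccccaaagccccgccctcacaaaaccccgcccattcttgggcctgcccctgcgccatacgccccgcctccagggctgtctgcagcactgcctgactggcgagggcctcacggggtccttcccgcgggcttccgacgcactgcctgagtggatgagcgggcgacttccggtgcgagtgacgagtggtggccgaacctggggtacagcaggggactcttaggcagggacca
Psmc6, chr14:45329574-45329873, plus strand: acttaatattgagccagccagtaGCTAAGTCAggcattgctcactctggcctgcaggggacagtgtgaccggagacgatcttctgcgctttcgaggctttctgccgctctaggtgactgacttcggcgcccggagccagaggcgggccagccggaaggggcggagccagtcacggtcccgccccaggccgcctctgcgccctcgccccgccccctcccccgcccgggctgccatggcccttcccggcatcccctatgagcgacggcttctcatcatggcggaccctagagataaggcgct
In Psmd9 the TGACNNNGC match ends 22 bases before the start, in Psme4 it spans the start, and in Psmd12 and Psmc6 it lies 238 and 218 bases upstream. It reads on the gene's strand in Psmd9 and on the opposite strand in the other three.

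No proteasome gene passed the test after loss of 1 Apc copy. In Apc_HET against Apc_WT limma called 0 of 38, none had an unadjusted p under 0.05, and 0% of all 12962 genes were called, with 561 genes (4.33%) at an unadjusted p under 0.05. The median log2 fold change was -0.01, beside 0.07 for all genes. The smallest p-values belonged to Psmc2 (0.25 ± 0.15), Psmd13 (-0.16 ± 0.15) and Psme4 (0.14 ± 0.13), with limma adjusted p from 0.987 to 0.989. The intervals do not exclude moderate changes: the 95% limits of Psmc2 ran from -0.08 to 0.59. The fit pools the spread of all genotypes, so scatter among the Apc_KO libraries enters these limits as well.

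Against Apc_HET, Apc_KO gave 10 higher genes and 1 lower, beside 41.8% of all genes called (22.8% higher and 18.9% lower). Of the 38, 26.3% were called higher. This comparison shares the Apc_KO libraries with that of Apc_KO against Apc_WT. The higher genes were Psmb5, Psmc4, Psmc6, Psmd4, Psmd6, Psmd8, Psmd9, Psmd12, Psmd13 and Psme4, and Psmc2 was lower. Psmd13, a lid gene, stood at 42.1, 43.5, 46.5 and 49.1 FPKM in Apc_WT, 43.9, 40.8, 36.02 and 41.2 in Apc_HET and 40.1, 63.6, 49.5 and 65.6 in Apc_KO. Its Apc_KO replicate 1 lay within the Apc_HET range and the other three above it (0.40 ± 0.14 SE against Apc_HET, limma adjusted p = 0.0426; 0.24 ± 0.15 against Apc_WT, adjusted p = 0.199). The lid had 4 of 8 genes higher, the ATPases 2 of 5, the base 1 of 2 and the core 1 of 14. Fewer genes passed without Apc_HET replicate 1 (6 genes, beside 35.5% of all genes), 2 (5, 35.9%), 3 (4, 37.6%) or 4 (4, 35.2%) or Apc_KO replicate 2 (5, 40%), and 21 passed without Apc_KO replicate 1 (43.1%). Psmd12 and Psmd8 had the smallest p-values after Psmc2, with log2 fold changes of 0.52 ± 0.15 (adjusted p = 0.0123) and 0.58 ± 0.17 (adjusted p = 0.0153).

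Immunoproteasome genes, which the naming rule leaves out, went the opposite way in Apc_KO. Psmb8, Psmb9 and Psmb10 replace Psmb5, Psmb6 and Psmb7 in proteasomes of interferon-exposed cells, and Psme1 and Psme2 form their activator. Psmb8 stood at 64.7, 83.2, 94.1 and 109.7 FPKM in Apc_WT, 146, 102, 152 and 119.8 in Apc_HET and 29.6, 43.9, 39.9 and 46.7 in Apc_KO. It fell by 1.11 on the log2 scale against Apc_WT (SE 0.19, limma adjusted p = 0.000507), with no overlap. Psmb9 was at 69.7, 80.4, 89.7 and 110.2 FPKM in Apc_WT, 127, 85.95, 126 and 96.7 in Apc_HET and 15.9, 33.1, 29.3 and 39.9 in Apc_KO, a change of -1.59 ± 0.25 (adjusted p = 0.000250), again with no overlap. The row joining Psmb10 with Ctrl had 108, 133, 137 and 157 FPKM in Apc_WT, 140.2, 120.3, 138 and 119 in Apc_HET and 37.99, 59.5, 60.1 and 73.2 in Apc_KO (-1.22 ± 0.18, adjusted p = 0.000165), and the share of Ctrl in it cannot be told apart. All 4 of its Apc_KO libraries were below the others. Psme2, at 96.5, 105, 107 and 125 FPKM in Apc_WT, 113, 104, 124 and 95.8 in Apc_HET and 36.6, 63.97, 57.1 and 95.8 in Apc_KO, fell by 0.84 (SE 0.23, adjusted p = 0.00934), its Apc_KO replicate 4 lying just under the other genotypes. Psme1, at 211, 247, 228 and 279.7 FPKM in Apc_WT, 264, 242, 312 and 243 in Apc_HET and 153, 191, 175 and 397 in Apc_KO, was low in 3 Apc_KO libraries and high in replicate 4, and was not called (-0.18 ± 0.25, adjusted p = 0.603).

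The ratio of immune to constitutive catalytic subunits was lower in Apc_KO for each pair, and higher in Apc_HET for Psmb8 and Psmb9 only. Taken within a library as log2 of (FPKM + 1) over (FPKM + 1), Psmb8 over Psmb5 was -2.003 ± 0.31 (SD, n = 4) in Apc_KO, beside -0.42 ± 0.22 for Apc_WT and 0.30 ± 0.26 for Apc_HET. In the same order Psmb9 over Psmb6 was -2.15 ± 0.30, -0.24 ± 0.10 and 0.11 ± 0.20. The joint Psmb10 row over Psmb7 was -1.64 ± 0.26, -0.07 ± 0.14 and -0.16 ± 0.07. Differences of Apc_KO from Apc_WT were -1.58, -1.91 and -1.58, and in each the groups of 4 did not overlap (two-sided exact permutation p = 0.0286, the smallest that 4 against 4 allows, adjusted p = 0.0321 over 9 tests). Apc_HET lay above Apc_WT for Psmb8 over Psmb5 by 0.72 and for Psmb9 over Psmb6 by 0.35 (exact permutation p = 0.0286, adjusted p = 0.0321 for both; p = 0.0571 for the first without Apc_WT replicate 1, 2 or 3 and for the second without any 1 Apc_WT replicate), but not for Psmb10 over Psmb7 (-0.10, exact permutation p = 0.343). By limma, 0 of the 5 immunoproteasome genes were called in Apc_HET against Apc_WT, beside 0 of all 12962 genes. Most of the Apc_KO difference sits in the immune genes, whose fold changes against Apc_WT were larger than those of their constitutive partners (0.47, 0.32 and 0.35, none called).

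**Figure D5:**
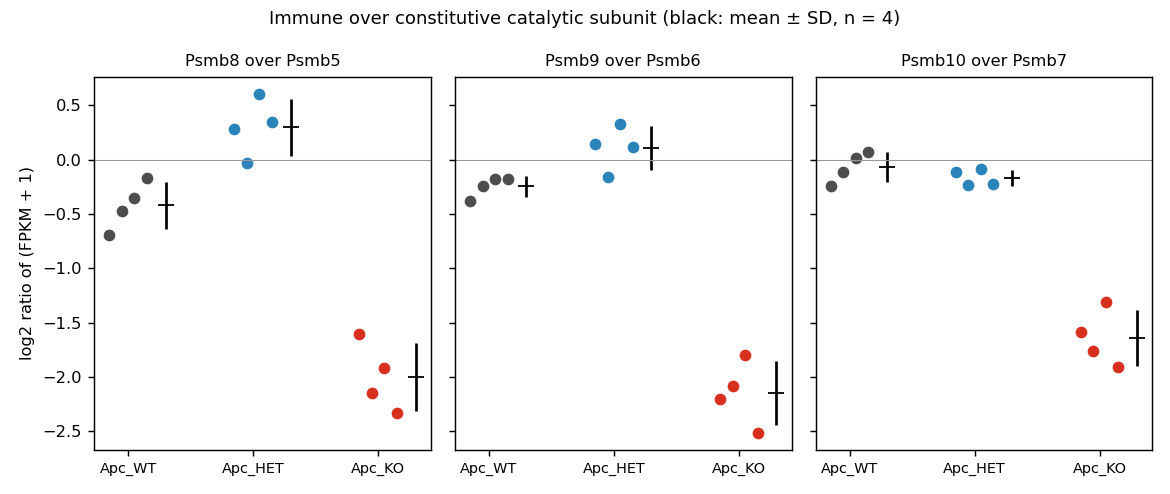
Points are libraries, and the y axis is the log2 ratio of an immune over a constitutive catalytic subunit, with mean ± SD in black; the Psmb10 values are those of the row it shares with Ctrl. Apc_KO libraries lie below all others in each panel, and Apc_HET libraries lie above Apc_WT in the first and second panels.

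Leukocytes express immunoproteasome genes, so their markers are given beside these values. Of 10 listed, 5 could be summed, none of them at 0, with sums of 5.49 to 8.43 FPKM in Apc_KO libraries beside 6.23 to 8.63 for Apc_WT and 6.24 to 9.26 for Apc_HET, and Cd3e, which defines T cells, was at 0.778, 0.842, 1.002 and 1.43 FPKM in Apc_WT, 1.37, 0.844, 1.55 and 0.661 in Apc_HET and 0.121, 1.25, 0.405 and 0.383 in Apc_KO. Of the 4 that were tested, Itgae was higher and Itgam lower in Apc_KO. Markers of differentiated epithelium fell: all 10 enterocyte markers were called lower in Apc_KO, their sum moving from 1665 to 4287 FPKM in Apc_WT down to 275 to 433, as were 7 of 7 goblet markers (1260.4 to 2002 down to 89.2 to 381). Lower too were 5 of 5 tested enteroendocrine, 3 of 4 tuft and 2 of 5 Paneth markers, with 1 tuft and 1 Paneth marker higher. Of 10 stem cell markers 9 were measured, 5 called higher, among them Lgr5 (20.2 to 30.01 FPKM in Apc_WT, 26.99 to 65.4 in Apc_KO), and 2 lower, with Olfm4 at 5019 to 5782 FPKM in Apc_WT and 81.7 to 702 in Apc_KO. Of 5 tested stroma and endothelium markers Vim, Cdh5, Pdgfra and Acta2 rose and Pdgfrb fell. Fewer cells of a type and less RNA per cell cannot be told apart in sorted bulk samples, and the part of these markers in the proteasome values was not tested.

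Proteasome genes with other names were called higher at a share near that of all genes. Of 8 tested subunits and partners, 2 were called higher in Apc_KO against Apc_WT and 0 lower, beside 27.9% and 17.7% of all genes: Adrm1, a ubiquitin receptor of the base, at 30.3, 30.4, 34.3 and 31.7 FPKM in Apc_WT and 46.6, 52.9, 47.4 and 71.2 in Apc_KO (0.75 ± 0.13 SE, limma adjusted p = 0.000460), and Usp14, a deubiquitinase that binds the base (0.28 ± 0.10, adjusted p = 0.0380). No Apc_KO library overlapped Apc_WT for either gene. Adrm1 had a larger fold change than any of the 38. Pomp, the chaperone that completes the core, had 0.32 ± 0.25 and was not called. Of 11 shuttle and segregase genes 3 were higher, again close to that share, Nploc4 (0.42 ± 0.12), Ubqln2 (0.41 ± 0.09) and Ufd1l (0.39 ± 0.12), and 1 lower, Ddi2, which fell by 0.76 (SE 0.16, adjusted p = 0.00184). Ddi2 is the protease that activates Nfe2l1. None of 3 ubiquitin and ubiquitin-activating enzyme genes passed.

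Among 9 tested genes that regulate transcription of proteasome genes, 2 were higher and 1 lower, no more than the 27.9% and 17.7% of all genes. Nfe2l1, the main activator of subunit genes when proteasome activity falls, was at 17.5, 13.6, 16.1 and 15.9 FPKM in Apc_WT, 17.5, 16.7, 17.9 and 17.4 in Apc_HET and 19.1, 16.6, 19.5 and 11.9 in Apc_KO, with the groups overlapping (0.07 ± 0.14 SE, limma adjusted p = 0.725). Its relative Nfe2l2, the oxidative stress factor, was at 106, 113, 95.4 and 114 FPKM in Apc_WT, 113, 94.96, 82.6 and 107 in Apc_HET and 68.8, 60.5, 65.1 and 84.9 in Apc_KO. It fell by 0.62 against Apc_WT with no overlap (SE 0.13, adjusted p = 0.00239). Maff, a small Maf partner of both, was at 36.5, 25.99, 27.2 and 40.3 FPKM in Apc_WT, 50.2, 51.05, 66.01 and 35.3 in Apc_HET and 136, 83.6, 76.4 and 71.3 in Apc_KO, with every Apc_KO library above all others and a log2 fold change against Apc_WT of 1.45 ± 0.23 (adjusted p = 0.000307). Nfyb, a subunit of the CCAAT-binding factor NF-Y, rose by 0.49 ± 0.08 (adjusted p = 0.000503), while Nfya and Nfyc were not called.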

How the data were processed

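RNA-seq tables of 12 libraries, 4 mice per genotype, were used. The authors deposited FPKM per locus, per the file headers; Cuffdiff, Cufflinks, TopHat and Bowtie and the builds mm10 and GRCm38 are listed in the submitters' processing notes, and versions and annotation are not given in the sources used here. The library was random-primed cDNA, per the labels' protocols.

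FPKM were summed per symbol. Of 14499 symbols, 295 whose loci differ between tables and 122 with a failed estimate were left out, and 12962 of 14082 reached 1 FPKM in 4 libraries. log2(FPKM + 1) was fitted over all 12 libraries with limma 3.58.1 in R 4.3.3 (lmFit, contrasts.fit, eBayes with trend, two-sided), with Benjamini-Hochberg adjustment over all kept genes; fold changes on this scale understate those of low genes. The script was tested on simulated data with independent genes and the spread of Apc_WT and Apc_HET in all groups. The wider scatter of the Apc_KO libraries was therefore not covered. Ratios were tested by exact permutation. Read depth is unknown. Steps among low values gave estimates from 0.370 to 1 times that of Apc_WT replicate 1, the reference, whose own value is 1 by definition. Apart from the reference, only Apc_HET replicates 1, 3 and 4 showed a clear step. The lowest estimate, in Apc_WT replicate 2, had none, so the range is uncertain.

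Same-numbered libraries did not deviate together (correlations from -0.20 to 0.18), so replicates were not paired. The length trend was a lowess of span 0.3 on the longest coding transcript per library, fitted on genes over 10 FPKM. In each structural list the most abundant gene and the largest calls were named, with the 3 smallest p-values of the other comparisons and up to 3 called genes in each direction per pathway list; other genes are named by count or role. The genes and lists were chosen with earlier results of these data known.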

Additional observations from a re-analysis of the deposited data

Results flagged for a closer look

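Among 75 groups of 4 libraries examined, 4 held a library that stood far from the other three, and chance alone marks about 1 in 20 such groups. Psmd4, the ubiquitin receptor, was lowest in Apc_WT replicate 1 at 61.1 FPKM, with the next library at 72.4. Psmd10 was lowest in an Apc_HET library at 15.6 FPKM, close to the next at 16.2. Psmg2, an alpha-ring chaperone, was highest in Apc_KO replicate 4 at 47.7 FPKM, with the next at 34.1. Psme1, of the immunoproteasome activator, was highest in the same library at 397 FPKM, with the next at 191. Both high values fall in the library whose short transcripts were high across all genes, and the part of that in them was not tested.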

How the results depend on the processing

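Calls among the 38 genes depended on the libraries and the scaling more than their directions did. For Apc_KO against Apc_WT, 7 calls became 12 with quantile normalization, 4 with a fit of the 2 genotypes alone, 17 with array weights, and 4 to 21 on leaving out single libraries. The share called higher was 28.9% beside 21.3% of all genes with quantile normalization and 10.5% beside 23.4% with the 2 genotypes alone. With array weights it was 44.7% beside 30.8%. It was 10.5% beside 24.8% without Apc_WT replicate 1 and 55.3% beside 29.3% without Apc_KO replicate 1. Leaving out Apc_KO replicates 1 and 4 together gave 18. Removing the length trend, added after seeing the data, gave 18, or 14 with the replicate block and 16 without Apc_KO replicate 4. For Apc_KO against Apc_HET, 11 calls became 7 with size factors, 4 with the 2 genotypes alone, 18 with array weights, 4 to 21 on leaving out single libraries, 19 without Apc_KO replicates 1 and 4, and 18 without the length trend, or 17 with the replicate block. Against Apc_HET the share called higher was 15.8% beside 20.8% of all genes with size factors and 7.89% beside 19.4% with the 2 genotypes alone. It was 44.7% beside 26.6% with array weights and 47.4% beside 25.2% without Apc_KO replicates 1 and 4. Without the length trend it was 44.7% beside 25.8%. The replicate number as a block left 7 calls against Apc_WT and 9 against Apc_HET. The share of the 38 called higher exceeded that of all genes in 7 of 21 recomputations against Apc_WT and 12 of 21 against Apc_HET. For Apc_HET against Apc_WT no proteasome gene was called in any of 19 recomputations; over all genes there was 1 call with a pseudocount of 0.1, with 2 genotypes or with array weights, 34 with symbols of differing loci kept, and 0 to 4 on leaving out single libraries. Of the named genes, signs turned for uncalled ones only: leaving out single libraries gave -0.0219 to 0.49 for Psma6 (negative without Apc_KO replicate 4), -0.20 to 0.0462 for Psmg2 (positive without Apc_WT replicate 2), -0.0969 to 0.28 for Psmd10 (negative without Apc_KO replicate 4), -0.27 to 0.11 for Psma4 (positive without Apc_KO replicate 1 or, at 0.0283, replicate 3) and -0.092 to 0.11 for Psmd11 (-0.0628 without Apc_WT replicate 4, -0.092 and -0.0411 without Apc_KO replicates 2 and 3). Psmd11 was -0.11 with size factors, -0.0609 with quantile normalization and -0.0396 without the length trend, with or without the block, and Psmd10 was -0.00627 without Apc_KO replicates 1 and 4 and -0.0376 with the length trend and replicate 4 removed. Over all 38 genes, 29 kept the same sign against Apc_WT in each of 21 recomputations. Psma1, Psmb1, Psmg1 and Psmd5, also uncalled in the deposited values, turned in some of them as well. The subunit ratios kept their sign, -1.58, -1.91 and -1.58 for Apc_KO against Apc_WT, -2.30, -2.26 and -1.48 against Apc_HET, and 0.72 and 0.35 for Apc_HET against Apc_WT, but a replicate block of 4 pairs cannot go below an exact p of 0.125. Leaving out 1 library gave 0.62 to 0.83 for Psmb8 over Psmb5 and 0.28 to 0.44 for Psmb9 over Psmb6 in Apc_HET against Apc_WT, with an exact p of 0.0571 in 7 of 16 cases, and changed no other ratio's call. The cause of these shifts was not tested. Within-genotype scatter in Apc_KO limits precision: standard errors of core genes were 0.15 to 0.28 in the deposited values.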
